A study of Mus musculus with 16 samples.

Results

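Among mouse LSK cells that were sequenced deeply, a small group held no transcript of 9 mitotic genes and at most 1 molecule of the replication licensing genes. LSK cells are bone marrow cells that lack lineage markers and carry the surface proteins Sca-1 and Kit. The group was chosen by a rule on the counts of each cell. A cell had to carry at least 1500 unique molecular identifiers (UMIs, which count original RNA molecules) and under 20% mitochondrial UMIs. It had to hold 0 UMIs of Mki67, Top2a, Birc5, Ccnb1, Ccnb2, Cdk1, Ube2c, Tpx2 and Cenpa, and no more than 1 UMI of Pcna and Mcm2 to Mcm7 together. Of 6144 wells, 2690 cells passed the first part of the rule, and 195 of them (7.25%) passed all of it. The other 2495 deeply sampled cells were the comparison.

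Stem and progenitor cells of the marrow leave and re-enter the cell cycle, and a cell at rest stops making the RNAs of DNA replication and mitosis. MCM proteins form the helicase that is loaded onto DNA before S phase, PCNA is the sliding clamp of the DNA polymerases, and cyclin B with CDK1 drives entry into mitosis. Quiescence is a known trait of long-term haematopoietic stem cells, while multipotent progenitors in the same gate divide often. Txnip, Mxd4 and Klhl24, the 3 markers given for these cells, code for an alpha-arrestin that limits glucose uptake and binds thioredoxin, a MAX partner that opposes MYC, and a substrate adaptor of a cullin ubiquitin ligase.

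The 16 libraries were made by MARS-seq, a method that counts the 3' ends of polyadenylated RNA in sorted single cells. All came from C57BL/6J animals and belong to 1 group. Control fetal liver cells (CD45.1) and Regnase-1-/- Regnase-3-/- fetal liver cells (CD45.2) were mixed 1:1 and given to lethally irradiated CD45.1/CD45.2 mice, and LSK cells were sorted from the marrow 4 weeks later. Regnase-1 and Regnase-3 are RNases that degrade messages of inflammatory genes. No label assigns a well or a library to a donor genotype or to a mouse, so the cells of both donors, and any host cells left, are mixed and no comparison of genotypes was made. All cells described here therefore passed through transplantation into an irradiated host. The libraries held 521435 to 822534 UMIs each. The well table puts libraries 2 to 10 in sequencing batch SB341 and libraries 11 to 16 in SB343, and library 1 has no entry there. No well identifier was shared between libraries.

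Cells without cycle transcripts were found in every library, and their share varied widely. The share was lowest in library 10, with 2 of 146 deeply sampled cells (1.37%, 95% Wilson interval 0.377 to 4.86%), and highest in library 1, with 24 of 203 cells (11.8%, interval 8.07 to 16.99%). The median of the 16 libraries was 6.81%. Within SB341 the shares ran from 1.37 to 10.4% with a median of 9.28%, and within SB343 from 3.90 to 8.29% with a median of 6.27%, so the batches overlapped. The intervals cover counting error only.

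The share fell with the depth of a cell. Of cells with 1500 to 2000 UMIs, 134 of 813 (16.5%, Wilson interval 14.1 to 19.2%) belonged to the group. The figures were 55 of 926 (5.94%) at 2000 to 3000 UMIs and 6 of 708 (0.847%) at 3000 to 5000 UMIs. Of the 243 cells with 5000 UMIs or more, 0 belonged, which allows a share of up to 1.23%. To compare cells at equal counts, each cell was thinned at random to 1500 UMIs and the rule was applied again. The group then held 305 of 2690 cells (11.3%), among them all 195 cells chosen on all their UMIs. After thinning the share still fell with the original depth, from 18.1% of cells with 1500 to 2000 UMIs to 13.1%, 4.38% and 2.47% in the deeper ranges. Cells that met the rule at equal counts had therefore carried fewer UMIs before thinning. In each of 14 libraries with at least 10 cells of both kinds they had a lower median total, with a median over libraries of 2045.5 against 2683.75 UMIs (exact sign permutation over libraries, two-sided, p = 0.000122, the smallest possible with 14 libraries, 0.000488 after Benjamini-Hochberg adjustment over 4 measures).

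**Figure D1:**
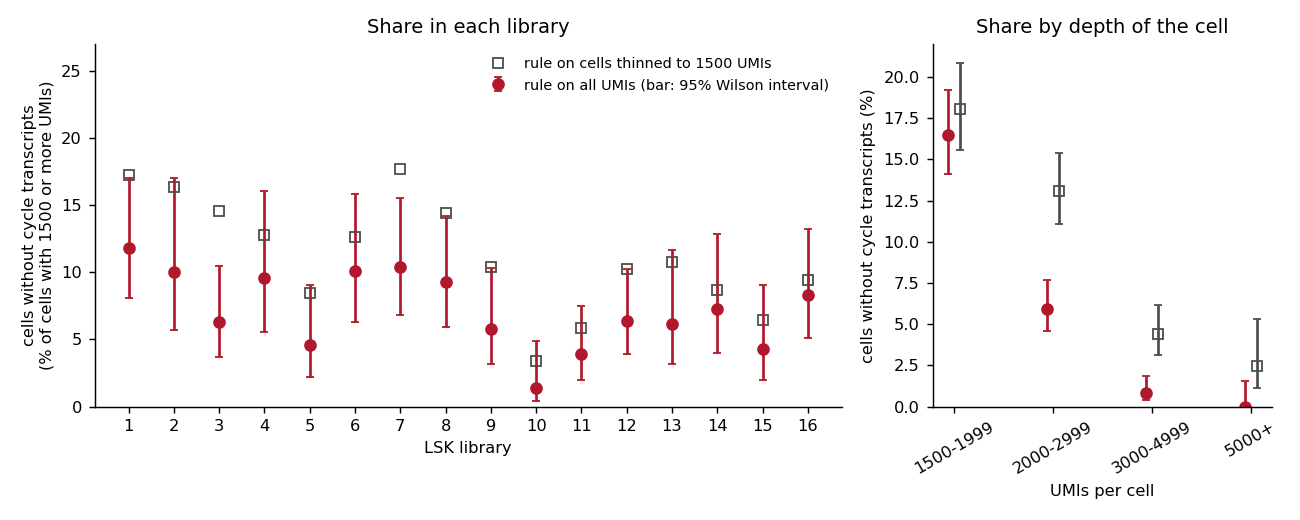
The left panel gives the share of cells without cycle transcripts (y axis, percent of cells with 1500 or more UMIs) in each of the 16 LSK libraries, by the rule on all UMIs (red, with 95% Wilson intervals) and on cells thinned to 1500 UMIs (open squares). The right panel gives the share by UMIs per cell with the same symbols and intervals; the red share falls from 16.5% in the shallowest range to 0 of 243 cells in the deepest.

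The 195 cells split almost evenly at the licensing threshold. The rule left 98 cells with 0 and 97 cells with 1 licensing UMI. Just outside stood 88 cells with 2 licensing UMIs and no mitotic UMI, and another 88 cells with 1 mitotic UMI and at most 1 licensing UMI. Levels are given as CPM, the UMIs of a gene summed over cells and scaled to a common total. Summed Txnip was 204.6 and 136.9 CPM in the 2 inner sets, and 123.2 and 226.9 CPM in the 2 outer sets. Ifitm1 was at 694.7 and 594.9 CPM inside, at 535.7 and 608.6 CPM just outside, and at 337.1 CPM in the remaining 2319 cells. By Ifitm1, the cells just outside the rule thus lay between the group and the remaining cells, while by Txnip the cells with 1 mitotic UMI stood above both inner sets. Klhl24 was at 145.4 and 194.8 CPM inside, at 58.9 and 94.1 CPM just outside and at 75.8 CPM in the remaining cells. In 57 cells just under the minimum of 1500 UMIs that met the rest of the rule, Txnip was at 72.8 and Klhl24 at 60.7 CPM, both below the remaining cells, and Ifitm1 at 789.1 CPM. Txnip and Klhl24 were thus not raised in these 57 cells, but no counting interval was made for so few cells. Mxd4, the third given marker, was at 157.8 CPM in those 57 cells. It was at 96.9 and 63.2 CPM inside, at 53.6 and 116.2 CPM just outside and at 45.9 CPM in the remaining cells.

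Txnip, Klhl24 and Mxd4 had been given as markers of these cells, so their levels are a description and were not tested. Levels are CPM of the summed UMIs of the cells of a library, in the 11 libraries with at least 10 cells of both kinds (164 cells without cycle transcripts and 1751 others). Txnip, at chr3:96557957-96561883 of GRCm38 on the plus strand, ran from 38.9 to 473.3 CPM in cells without cycle transcripts (median 178.8) and from 87.3 to 134.2 CPM in the others (median 101.5). It was higher in 8 of 11 libraries, the groups overlapped, and libraries 4, 7 and 14 went the other way with 38.9, 50.3 and 54.1 CPM. Klhl24, at chr16:20097542-20129221 on the plus strand, ran from 0 to 229 CPM (median 164.7) against 53.3 to 86.2 CPM (median 77.4). It was higher in 10 of 11 libraries, and library 4, with no Klhl24 UMI in its cells without cycle transcripts, was the exception. Mxd4, at chr5:34173883-34187720 on the minus strand, ran from 0 to 175.5 CPM (median 54.2) against 27.9 to 67.1 CPM (median 38.6) and was higher in only 6 of 11 libraries. Klhl24 was thus higher in most libraries and Mxd4 in about as many as not, and the ranges of both overlapped.

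Each marker was seen in a minority of single cells. On all UMIs, 100 of 195 cells (51.3%) held none of the 3, and 57.9% of the others did. Txnip was seen in 47 of 195 cells (24.1%) and in 23.9% of the others, whose depth was greater. At the common 1500 UMIs, Txnip was seen in 21.3% of cells without cycle transcripts (interval 17.1 to 26.2%) and 13.96% of others (12.6 to 15.4%), Mxd4 in 10.8 (7.81 to 14.8%) against 6.42% (5.50 to 7.47%), and Klhl24 in 13.8 (10.4 to 18.1%) against 10.3% (9.16 to 11.6%). At equal depth the intervals of Klhl24 overlapped, and those of Txnip and Mxd4 did not. These intervals pool the cells of all libraries and cover counting error only, so they are no test of the markers. By library, on all UMIs, Klhl24 was higher in 10, Txnip in 8 and Mxd4 in 6 of 11 libraries. None of the 3 markers was seen in 190 of the 305 thinned cells (62.3%) and in 72.5% of the others. At least 2 of the 3 were seen together in 22 of 305 cells (7.21%) and in 76 of 2385 others (3.19%).

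**Figure D2:**
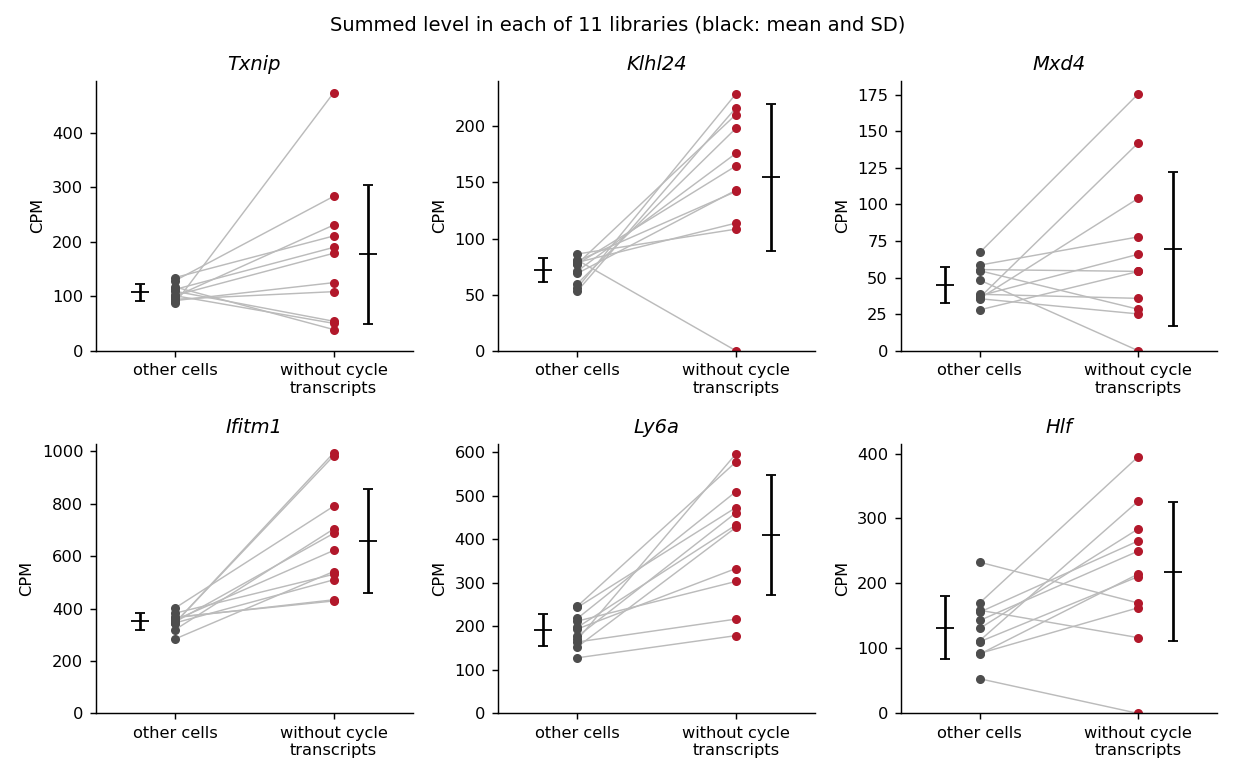
Each panel gives the summed level of 1 gene (y axis, CPM) in the other cells and in cells without cycle transcripts, with 1 point per library for 11 libraries, lines joining the 2 values of a library, and the mean and SD in black. Ifitm1 is the panel in which the 2 groups do not overlap (284.3 to 402.3 CPM against 429.2 to 993.9 CPM); Mxd4 rises in 6 and falls in 5 libraries.

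The promoters of Txnip and Mxd4 are shown because these genes are the given markers, and the promoter of Ckap2l, a mitotic spindle gene that fell by 2.29 ± 0.53 on the log2 scale (edgeR adjusted p = 0.00117), as an example chosen after the values were seen because it holds both cycle motifs searched. Each is the 250 bases before the RefSeq start (GRCm38.p6), 5' to 3' on the gene's strand. Capitals mark the letters CACGTG (E-box), GTAAACA (forkhead motif), TTTGAA (the CHR element of late cell cycle genes) and CCAAT (the NF-Y box), searched on both strands.
Txnip, chr3:96557707-96557956, plus strand: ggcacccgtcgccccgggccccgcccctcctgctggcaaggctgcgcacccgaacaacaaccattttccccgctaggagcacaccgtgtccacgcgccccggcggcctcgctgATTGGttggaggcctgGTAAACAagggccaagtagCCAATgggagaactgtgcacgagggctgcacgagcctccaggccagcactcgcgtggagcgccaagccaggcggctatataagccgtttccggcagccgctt
Mxd4, chr5:34187711-34187960, minus strand: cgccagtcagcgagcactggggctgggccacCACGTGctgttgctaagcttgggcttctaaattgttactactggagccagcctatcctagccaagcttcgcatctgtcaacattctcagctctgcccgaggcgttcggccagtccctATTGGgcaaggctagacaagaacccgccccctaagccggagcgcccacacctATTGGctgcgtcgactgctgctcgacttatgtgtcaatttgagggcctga
Ckap2l, chr2:129297213-129297462, minus strand: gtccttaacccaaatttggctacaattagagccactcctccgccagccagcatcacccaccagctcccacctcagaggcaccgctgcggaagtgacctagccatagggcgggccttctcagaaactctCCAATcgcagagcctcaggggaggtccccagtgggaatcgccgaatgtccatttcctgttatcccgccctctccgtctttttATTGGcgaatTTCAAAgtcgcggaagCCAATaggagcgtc
The Txnip window held GTAAACA at -121 between CCAAT matches at -137 and -102. The Mxd4 window held CACGTG at -219 and CCAAT matches at -102 and -50. The Ckap2l window held TTTGAA at -30 and CCAAT at -122, -40 and -14. Among the 27025 genes with a listed promoter, 6.05% held CACGTG in the same window, 3.09% GTAAACA, 16.3% TTTGAA and 34.5% CCAAT. These matches are letters in a window and show no binding.

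Some genes followed the number of cycle molecules beyond the rule's threshold, and others did not. After thinning to 1500 UMIs, 151 cells held 0 UMIs of the 16 rule genes, 208 held 1, 574 held 2 to 3, 1126 held 4 to 7, 611 held 8 to 15 and 20 held 16 or more. The median UMIs per cell before thinning also rose over the first 5 bins, from 1948 to 2964, and were 2805 in the last. Summed Txnip in these bins was 220.8, 134.6, 108.0, 105.4, 121.1 and 66.7 CPM, highest in the cells with none, whose counting interval overlapped that of the cells with 1. The 20 cells of the last bin leave wide intervals for every gene. Ifitm1 fell at each step, from 657.8 to 535.3, 429.7, 352.9, 307.7 and 200 CPM. Ly6a went from 357.6 to 246.8, 225.3, 185.3, 183.3 and 133.3 CPM. The histone gene Hist1h2bc went from 181.0 and 153.8 CPM in cells with 0 or 1 cycle UMI to 84.8, 42.0, 36.0 and 33.3 CPM. Tuba1b, an alpha-tubulin, went the other way, from 428.3 to 580.1, 1037, 1463 and 1692 CPM, with 1367 CPM in the 20 cells of the last bin. All 305 cells of the thinned group lie in the first 2 bins, and cells of 1 library share its depth and batch.

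**Figure D3:**
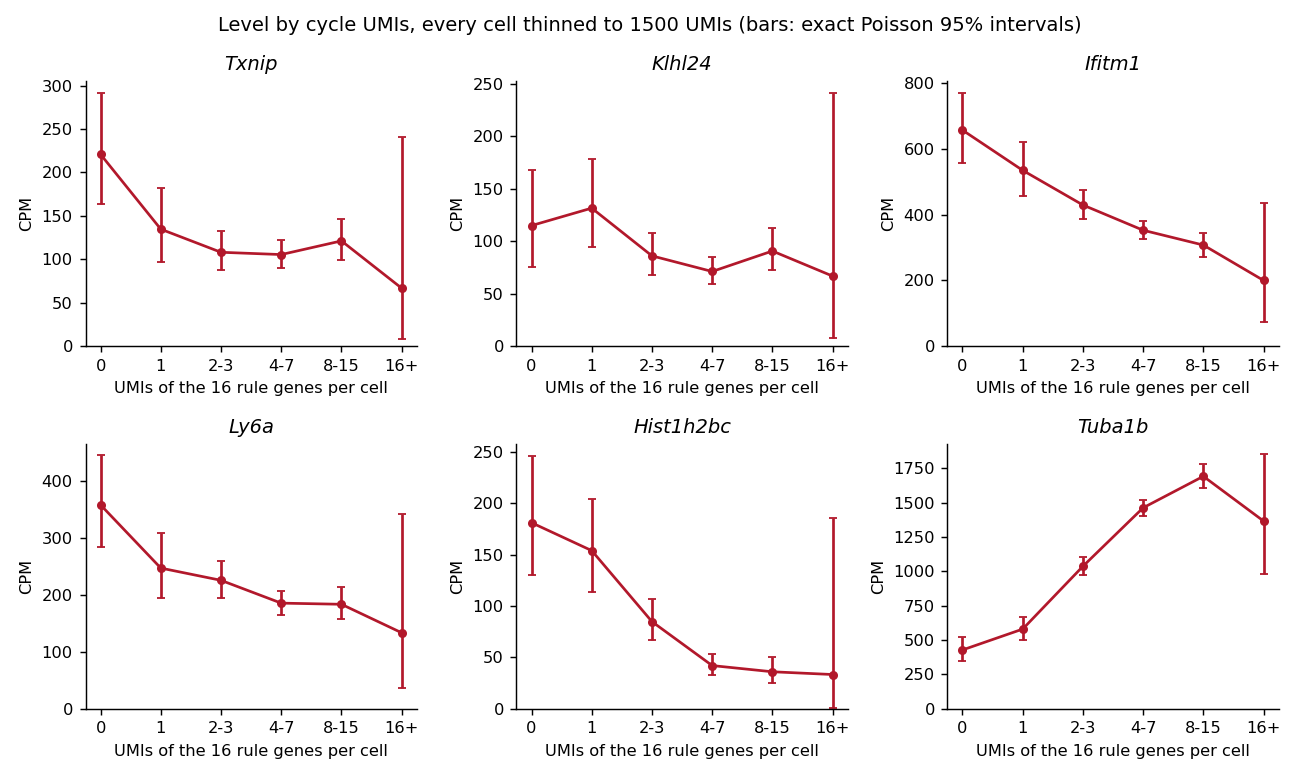
Each panel gives the summed level of 1 gene (y axis, CPM) by the number of UMIs of the 16 rule genes in a cell (x axis), with every cell thinned to 1500 UMIs; bars are exact Poisson 95% intervals and cover counting error only. Ifitm1 falls from 657.8 CPM in cells with 0 cycle UMIs to 307.7 CPM in cells with 8 to 15, while Tuba1b rises from 428.3 to 1692 CPM; the last bin holds 20 cells.

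Gene by gene, 35 of 2446 tested genes (1.43%) were higher and 122 (4.99%) were lower in cells without cycle transcripts. The test was edgeR's quasi-likelihood test on UMIs summed per library and kind of cell, paired by library over 11 libraries, with an adjusted p under 0.05. The rule genes and the 3 markers were not tested. The cells were chosen by their own transcripts, so genes that follow the cycle differ by construction, and the p-values of all genes understate the uncertainty to an extent that is not known. Every tested gene had at least 277 UMIs in the other cells. The low-count filter counted the sums of both kinds of cell, so a gene high in the group could enter through its level there. Hist1h2bc, Ppp1r9b, Shisa5 and Hlf passed the filter only in this way, so their calls are given as a description. Some other genes called higher may have entered likewise. Of the genes called lower, 48 stood in the 3 cycle lists used here, as did 1 of the genes called higher. With every cell thinned to 1500 UMIs and 14 libraries, 100 of 1445 genes (6.92%) were higher and 68 (4.71%) lower. Of the 35 genes called higher, 32 were tested on thinned counts and all 32 were called higher there; of the 122 called lower, 91 were tested and 63 were called lower. The thinned UMIs are drawn from the same cells, and all 195 cells stayed in the group, so this is no independent repeat. Against other cells of like depth, 14 of 309 tested genes (4.53%) were higher and 12 (3.88%) lower, and of the 35 higher genes 20 were tested, all 20 in the same direction and 9 called. Within the 7 SB341 libraries 23 of the 35 higher genes were called; within the 3 SB343 libraries all 35 had the same direction and 0 were called higher again. DESeq2 gave 68 higher and 88 lower genes from the same sums, so higher genes made up 43.6% of its calls and 22.3% of edgeR's.

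Some genes of haematopoietic stem cells were higher in the group. Of the 39 genes of the stem cell list, 9 were tested, 4 were called higher (Ly6a, Ifitm1, Hlf and Ifitm3) and 0 lower, with a median log2 fold change of 0.51 against -0.06 over all genes tested. Hlf entered the test only through its level in the group, so its call in this count is a description. Ifitm1 and Ifitm3 also stand in the interferon list. On thinned counts 5 of 8 were called higher (median 0.63), and within the SB343 libraries 0 of 9 were (median 0.54). The list's median turned to -0.07 without a low-count filter and to -0.07 with licensing genes at 0 UMIs, settings in which the median of all genes shifted by -0.58 and -0.35. Ly6a, which codes for the sort antigen Sca-1 (chr15:74994877-74998031, minus strand), ran from 178.8 to 596.6 CPM (median 433.1) in cells without cycle transcripts and from 127.8 to 246.8 CPM (median 194.2) in the others. The groups overlapped, but within each of the 11 libraries Ly6a was higher in the cells without cycle transcripts (log2 fold change 1.12 ± 0.19 SE, edgeR adjusted p = 3.09e-06). Ifitm1, an interferon-induced membrane protein gene also high in stem cells (chr7:140967221-140969825, plus strand), ran from 429.2 to 993.9 CPM against 284.3 to 402.3 CPM, without overlap. Its log2 fold change was 0.92 ± 0.14 (edgeR adjusted p = 5.67e-07).

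Hlf, a transcription factor gene that marks long-term stem cells (chr11:90336536-90390895, minus strand), ran from 0 to 395.3 CPM (median 214.6) against 53.3 to 232.6 CPM (median 131.0). It was higher in 8 of 11 libraries, and library 14 had no Hlf UMI in its cells without cycle transcripts. Hlf passed the low-count filter only with the group's own levels counted, so its call is a description. The call was close to the threshold (log2 fold change 0.77 ± 0.26, edgeR adjusted p = 0.0484) and was lost without library 1 (0.0881). On thinned counts, where the filter also counted both kinds of cell, Hlf was at 0.86 (edgeR adjusted p = 0.00161) with 11 of 14 libraries higher. Ifitm3, the neighbour and relative of Ifitm1, differed by 0.51 ± 0.14 (edgeR adjusted p = 0.0117, 9 of 11 libraries higher). Meis1, a homeobox partner of HOX proteins in stem cells, had a log2 fold change of 0.84 ± 0.31 with an adjusted p of 0.0873, and passed only on thinned counts (0.74, adjusted p = 0.0326). Gata2, another stem cell factor, was near 0 (-0.07 ± 0.38).

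Genes outside the stem cell list with large rises had varied known roles. Ppp1r9b, which codes for the protein phosphatase regulator spinophilin and was chosen after its values were seen, rose by 1.25 ± 0.33 (edgeR adjusted p = 0.00705, 9 of 11 libraries). It ran from 25.1 to 341.3 CPM (median 166.5) against 36.4 to 90.3 CPM (median 61.3), and the groups overlapped. Shisa5, coding for an endoplasmic reticulum membrane protein linked to p53 and interferon, was at 0 to 311.6 CPM (median 227.5) against 53.3 to 133.9 CPM (median 85.0) and rose by 1.13 ± 0.29 (edgeR adjusted p = 0.00441, 10 of 11 libraries). Ppp1r9b and Shisa5 passed the low-count filter only with the group's own levels counted. Gimap6, an immunity-associated GTPase gene, rose by 0.93 ± 0.27 (adjusted p = 0.0155, 10 of 11 libraries; 0.055 without library 1). Sdcbp, which codes for the scaffold protein syntenin, and Ptpn18, a tyrosine phosphatase gene, rose by 0.65 ± 0.21 and 0.50 ± 0.14 and were higher in all 11 libraries. Their edgeR adjusted p-values of 0.0407 and 0.0155 became 0.0554 and 0.0657 without library 1. Chosen after their values were seen, Cbfa2t3, a corepressor of stem and erythroid genes, rose by 0.85 ± 0.24, Chd4, the remodelling ATPase of the NuRD complex, by 0.72 ± 0.17, and the nuclear non-coding RNA Malat1 by 0.70 ± 0.17, each in 9 of 11 libraries.

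Some host genes of small nucleolar RNAs were higher. Gas5, a non-coding host gene (chr1:161034422-161038539, plus strand), ran from 971.8 to 1976 CPM (median 1323) against 776.9 to 1081 CPM (median 918.3). It was higher in all 11 libraries, by 0.61 ± 0.10 (edgeR adjusted p = 1.0e-06). The entries Snord47 and Mir5117 lie inside Gas5 on the same strand and rose by 0.63 and 0.60, so they cannot be counted as separate evidence. Zfas1, another host, rose by 0.63 ± 0.19 (edgeR adjusted p = 0.0252; 0.1 without library 1). Snord49a, which lies inside the host 2410006H16Rik, rose by 1.02 ± 0.18 in all 11 libraries (edgeR adjusted p = 1.09e-05). Over all 22 tested entries of this kind, grouped after the values were seen, 4 were called higher and 1 lower and the median was 0.16. The 4 count both Gas5 and Snord47. Of all tested genes 1.43% were called higher and 4.99% lower.

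**Figure D4:**
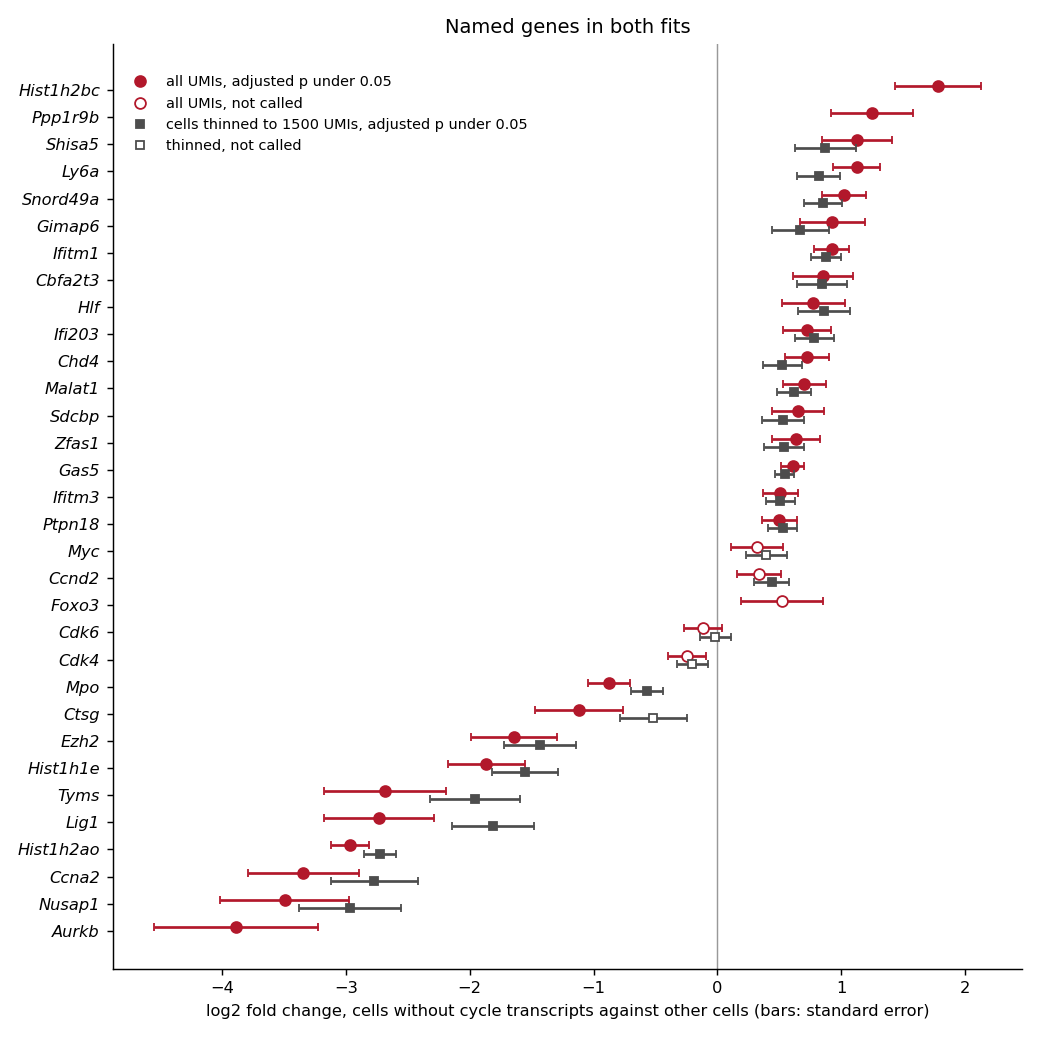
The x axis gives the log2 fold change of cells without cycle transcripts against the other cells for named genes (rows), with standard errors, from all UMIs (red, 11 libraries) and from cells thinned to 1500 UMIs (grey, 14 libraries; absent where the gene was too low to test). Filled symbols passed an edgeR adjusted p of 0.05; Ly6a stands at 1.12 and 0.82, Aurkb at -3.89.

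Histone genes split. Of the 66 replication-dependent histone genes, 5 were tested, and 4 were lower. Hist1h2ao fell by 2.96 ± 0.15 on the log2 scale, from 1311 to 1798 CPM in the other cells to 47.3 to 379.0 CPM, with no overlap (edgeR adjusted p = 3.42e-32). Hist1h2ap, Hist1h1b and Hist1h1e were lower too, with log2 fold changes of -3.22, -3.11 and -1.87. Hist1h2ao and Hist1h2ap are near-identical copies, and reads may be divided between them. The fifth, Hist1h2bc (chr13:23684199-23692908, plus strand), was the gene with the largest rise of all those tested, at 1.78 ± 0.35 (edgeR adjusted p = 8.42e-05). It passed the low-count filter only with the group's own levels counted, so its rank and p-value are biased by that choice and are a description. It ran from 0 to 433.6 CPM (median 162.4) against 22.3 to 112.4 CPM (median 51.4) and was higher in 9 of 11 libraries and lower in libraries 2 and 16. Its 67 UMIs came from 25 of 195 cells (12.8%), and 10 cells with at least 3 UMIs held 47 of them. After thinning it was seen in 11.5% of cells without cycle transcripts (interval 8.37 to 15.5%) and 5.03% of the others (4.22 to 5.98%), where it was too low to be tested. Of the replacement histones, which are made outside S phase, 0 of 5 tested genes were called in either direction; H1f0, the linker histone of resting cells, was at 0.75 ± 0.38 (adjusted p = 0.294).

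Genes of S phase and mitosis outside the rule were low in the group, which follows from the choice of cells and is given as a description. The name of the group holds for the rule genes only, since other cycle genes kept some UMIs. The summed level of the 75 other G2 and mitosis genes was 3195 to 5257 CPM (median 4159) against 11274 to 14234 CPM (median 12511). Of 36 tested members of that list, 29 were lower and 0 higher, with a median log2 fold change of -1.53; on thinned counts it was 19 of 24 and -1.01. Aurkb, the kinase of the chromosomal passenger complex, had 0 UMIs in the group in 9 of 11 libraries, and Ccna2, cyclin A, in 8 of 11. The 7 Ccna2 UMIs of all 195 cells came from 6 cells. Spc24, a kinetochore protein gene, and Nusap1, a spindle protein gene, were lower with log2 fold changes of -3.65 and -3.49. Tuba1b fell by 1.94, from 1210 to 1654 CPM to 142.0 to 552.9 CPM, without overlap. Of 31 tested genes of the other G1/S list, 15 were lower and 0 higher (median -1.15), among them Lig1, the replicative DNA ligase (-2.73), Tyms, thymidylate synthase (-2.69), and Rrm2, a ribonucleotide reductase subunit (-2.56). Ezh2, the Polycomb methyltransferase gene, fell by 1.64 ± 0.34 (edgeR adjusted p = 0.000284). Pcna-ps2 fell by 1.88, but as a copy of Pcna it shares reads with a rule gene.

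The motif letters were counted in the promoters of the called genes. Of the 122 lower genes, 82 had a listed promoter, and 51 of these (62.2%) held CCAAT and 22 (26.8%) TTTGAA. Of the 2446 tested genes, 1684 had one, and 37.3% held CCAAT and 11.3% TTTGAA. Among the lower genes of the G2 and mitosis list, 17 of 21 (81.0%) held CCAAT and 8 (38.1%) TTTGAA. Of the 35 higher genes, 18 had a listed promoter, with CCAAT in 3 (16.7%), TTTGAA in 1 and GTAAACA in 0. These shares describe the windows, and the list was chosen as cycle genes to begin with.

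No gene of G1 control passed the test on full counts. Of 6 tested genes of the G1 cyclin, CDK and RB list, 0 were called in either direction with the full counts, and the median was -0.18. Ccnd2, a D-type cyclin gene, was at 0.34 (edgeR adjusted p = 0.321) and was called higher only after thinning (0.44, adjusted p = 0.0231). Cdk6 and Cdk4, the kinases that D-type cyclins activate, were at -0.12 and -0.24, with adjusted p-values of 0.78 and 0.44. Rbl1, an RB relative, was at -0.84 ± 0.45 (edgeR adjusted p = 0.347) and below 0 in 8 of 11 libraries, and Tfdp1, the partner of E2F factors, at -0.66 ± 0.37 (0.373) and below 0 in 9. With a minimum of 1000 UMIs a cell, 1 of the 6 was called higher and 2 lower. Myc was at 0.32 (adjusted p = 0.461). Of the 13 genes of the MYC, MAX and MXD list Myc alone was tested, and of the 6 alpha-arrestins none was, Txnip being a given marker. The summed alpha-arrestin list was higher in 8 of 11 libraries, with a median of 286.1 CPM against 148.2 CPM, and Txnip is part of that sum.

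Of 34 FOXO factors and linked genes, 9 were tested and 0 were called, although 8 of 9 lay above 0 and the median was 0.42. Over all tested genes, 1061 of 2446 lay above 0 and the median was -0.06. FOXO factors are active when growth factor signalling is low. Sesn1, a stress-induced inhibitor of mTORC1, was at 0.73 with an edgeR adjusted p of 0.241. Foxo3 was at 0.52 (adjusted p = 0.447) and Bnip3l, a mitophagy receptor gene, at 0.57 (0.414). The list also holds Klhl24, which as a given marker was not tested. The autophagy and lysosome list behaved alike, with 10 of 11 tested genes above 0, a median of 0.43 and 0 called; Gabarap, which codes for an autophagosome protein, passed on thinned counts only (0.64, adjusted p = 0.015). With all genes kept whatever their counts, the medians of both lists were below 0 (-0.15 and -0.14).

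Few genes of mitochondrial respiration and protein synthesis passed the test. Over all 2446 tested genes, 1061 lay above 0 and 1385 below, and 1.43% were called higher and 4.99% lower. Of 71 tested nuclear genes of the respiratory chain, 62 lay below 0, 5 were called lower and 0 higher (median -0.24). The lower ones included Cox6c (-0.66, edgeR adjusted p = 0.0107), Cox7a2 (-0.64, 0.0281) and Cox6a1 (-0.51, 0.0485), subunits of cytochrome oxidase, and Uqcrq (-0.87, 0.0167), a subunit of complex III. Without library 1, Cox7a2 and Cox6a1 lost their calls. The summed list was lower in the group in all 11 libraries, with a median of 15471 CPM against 19209 CPM. Of 72 tested ribosomal protein genes, 53 lay above 0, 3 were called higher (Rps9 at 0.31, Rps14 at 0.25 and Rpl32 at 0.21) and 0 lower, and the median of 0.10 turned to -0.49 without the filter. Of 31 proteasome genes, only Psmb6 was called (-1.39), and its difference was -0.31 with an adjusted p of 0.368 after thinning. Of 22 chaperone genes, only Hspa5, the endoplasmic reticulum chaperone BiP, was called (-0.75, edgeR adjusted p = 0.00726), and it too was lost after thinning (-0.32, 0.174). Of 17 nucleotide synthesis genes 1 was called, Dtymk, thymidylate kinase (-1.09), a call that was lost without library 1. Nhp2, a snoRNP protein gene, was the single call among 21 ribosome biogenesis genes (-0.79, edgeR adjusted p = 0.0309), and Eef1g among 43 translation genes (-0.40, 0.0122). After thinning, Eef1g (-0.075, adjusted p = 0.674), Dtymk (-0.42, 0.327), Cox6a1 (-0.20, 0.372) and Uqcrq (-0.50, 0.081) were not called either. None of 8 glycolysis genes was called on full counts.

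Ribosomal and mitochondrial RNA took a larger part of the group's UMIs. The ribosomal RNA-like entries Gm42418 and Gm26917, chosen after their values were seen, rose by 0.37 and 0.43 on the log2 scale, Gm42418 from a mean of 33205 to 42294 CPM and in all 11 libraries. The mitochondrial ribosomal RNAs mt-Rnr2 and mt-Rnr1 rose by 0.34 and 0.25. Of 16 tested mitochondrially encoded genes, 3 were called higher (both ribosomal RNAs and mt-Co1, whose call was lost without library 1) and 1 lower, mt-Nd1, a complex I subunit (-0.38, edgeR adjusted p = 5.91e-06). The median mitochondrial share of UMIs per cell was 11.3% in the group and 10.2% in the others, higher in 10 of 11 libraries by 1.60 ± 1.18 percentage points (SD, exact sign permutation over libraries, two-sided, p = 0.00195, adjusted p = 0.0026 over 4 measures). The difference was 1.64 points in the 7 SB341 libraries and 1.75 points in the 3 SB343 libraries. A larger mitochondrial share and a smaller total of UMIs are also read as signs of lower cell or RNA quality, and their part in the differences above was not tested. Fewer genes were seen per cell, which the rule fixes in part because it asks for genes at 0, so the values are a description. At 1500 UMIs a cell of the group showed a median of 783.5 genes and another cell 847 genes, a mean difference of -59.0 ± 15.9 (SD) that was below 0 in all 11 libraries. The share of ribosomal protein UMIs was 11.6 against 11.4% (difference 0.351 ± 0.349 points, p = 0.00391, adjusted p = 0.00391), and with cells matched on depth it was -0.055 points.

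Among lineage genes, those of neutrophil and monocyte progenitors were the ones called lower. Of 10 tested genes of that list, 2 were lower and 0 higher (median -0.21). Mpo, myeloperoxidase, ran from 75.4 to 812.1 CPM (median 230.6) in the group and from 320.1 to 1025 CPM (median 462.0) in the others. The groups overlapped, and the paired difference was -0.88 ± 0.17 (edgeR adjusted p = 9.89e-05; -0.57 and 0.000699 after thinning; 0.0956 without the pairing by library). Ctsg, the granule protease cathepsin G, fell by 1.12 ± 0.35 (edgeR adjusted p = 0.036), and its difference lost the call without library 1 (-0.95, 0.129) and after thinning (-0.52, 0.253). Of 11 lymphoid genes, Gimap6 was called higher and 0 lower. Dntt, the terminal transferase of early lymphoid progenitors, was at -0.18 with an adjusted p of 0.702. Of 9 megakaryocyte and erythroid genes and 6 dendritic and MHC class II genes, 0 were called on full counts; on thinned counts Nfe2 (0.74, adjusted p = 0.00736) and Lmo2 (0.35, 0.0155) were called higher in the former and Cd74 (0.86, 0.0133) in the latter.

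Cells with stem cell transcripts met the rule more often in the total, but with a gate of 1 UMI not beyond the spread of libraries after adjustment. On counts thinned to 1500 UMIs, 94 of 603 cells with a UMI of Mecom, Hlf, Procr or Pdzk1ip1 belonged to the group (15.6%), and 10.1% of the remaining cells did. The difference per library was 4.86 ± 7.58 percentage points, above 0 in 11 of 16 libraries (exact sign permutation, two-sided, p = 0.0233, adjusted p = 0.0931 over 4 gates). With at least 2 such UMIs asked for, the difference was 11.9 points, above 0 in 8 of 10 libraries (permutation p = 0.0117, adjusted p = 0.0469), so the call depends on the gate. It was 7.19 points in the 9 SB341 libraries (exact p = 0.0352) and 0.197 points in the 6 SB343 libraries (exact p = 0.938). For cells with a UMI of Dntt, Ighm or Il12a the shares were 11.1 against 11.5% (p = 0.294). For cells with at least 2 UMIs of Mpo, Ctsg, Elane or Prtn3 they were 8.59 against 12.7% (-3.15 ± 6.14 points, 11 of 16 libraries lower, p = 0.0552, adjusted p = 0.11). For cells with a UMI of Pf4, Itga2b, Gata1, Car1 or Klf1 they were 8.39 against 11.7% (p = 0.199). Of the 305 thinned cells of the group, 30.8% met the stem gate, 35.4% the lymphoid, 25.2% the granule and 8.52% the megakaryocyte and erythroid gate. Of the 2385 others it was 21.3, 36.4, 34.3 and 11.9%. No gate was met by 22.95% of the group and 22.8% of the others, and more than 1 gate by 68 and 582 cells. Transcripts of all 4 kinds were thus found in the group as in the other cells.

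Interferon-induced genes were higher in part. Of 19 tested genes, 3 were called higher, Ifitm1, Ifitm3 and Ifi203 (0.72 ± 0.19, edgeR adjusted p = 0.00794), and 0 lower. The median was 0.19, and -0.39 in the fit without a low-count filter. The first 2 also stand in the stem cell list, so the lists are not independent. Of 12 tested MHC class I genes 0 were called. Of 3 tested immediate early genes, which respond within minutes to handling, 0 were called, but the list summed to a median of 912.4 CPM in the group and 598.0 CPM in the others and was higher in 10 of 11 libraries. Of the 34 genes listed as Regnase targets or NF-kB genes, 3 were tested and 0 called (median -0.07), Nfkb1 among them at 0.12 (adjusted p = 0.907). They summed to 851.9 against 816.0 CPM and were higher in 7 of 11 libraries.

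The markers of LSK cells were present in the group, and many markers of cells outside the gate were at 0. Over all 195 cells and 375655 UMIs, Kit had 87 UMIs, Ly6a 142, Cd34 214 and Flt3 66, together 1355 CPM against 1067 CPM in the others. Kit was at a mean of 228 CPM against 161 CPM, Cd34 at 553 against 589 CPM. Of 7 markers of mature neutrophils and macrophages, Camp, C1qa and Adgre1 were at 0 and all together made 8 UMIs (21.3 against 9.03 CPM). Of the B cell markers reported here, Ms4a1 was at 0 and Cd79b had 23 UMIs (61.2 against 34.4 CPM). Cd79b and the summed neutrophil and macrophage markers were thus higher in the group, and their part in the results was not tested. Of the T and NK markers Cd3d, Cd3e and Ncr1 were at 0, with 7 UMIs of Lck and 1 of Trac (21.3 against 22.3 CPM). The endothelial and stromal markers Cdh5, Kdr, Cxcl12 and Lepr were at 0 with 1 UMI in all. A count of 0 in 375655 UMIs allows up to 7.99 CPM.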

How the data were processed

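The deposited files hold counts of UMIs per gene and well, made by the authors from MARS-seq reads; the submitters' processing notes name bcl2fastq 2.15.0.4 and mm10. No aligner is named in the sources used here. A deposited well table, of other content than measurements, gives the cells sorted per well and the batch, per its file headers. From these, wells listed with no cell (60) and cells with 20% or more mitochondrial UMIs were left out. The 92 spike-ins came on top of the 52542 gene entries and stayed out of all totals. Spike-in measures were planned but could not be made, since deep cells held 5 spike-in UMIs in all. UMIs were summed per library and kind of cell where a library had at least 10 cells of both kinds (11 of 16) and tested with edgeR 4.0.16 (TMM, filterByExpr, quasi-likelihood, library as block, Benjamini-Hochberg; R 4.3.3), with DESeq2 1.42.0 as an alternative. Both kinds of cell come from the same library, which pairs them. No animal is named for a library, so p-values measure the spread between libraries, which may be technical. Per-cell shares were compared by exact sign permutation over libraries (scipy 1.17.1). Scripts were tested on simulated data. Coordinates are GRCm38; promoters are from RefSeq. Genes were matched by symbol. One marker of cells outside the gate is not reported here.

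The members and lists were chosen with earlier results of these data known. Genes were named where they were the 10 largest changes past the threshold in each direction with a mean of at least 50 CPM and the same sign in at least 10 of 11 libraries, or up to 4 called genes per list. The rule had asked for 14 libraries and was changed to 10 once only 11 could enter. Named after their values were seen, most of them outside this rule, were Hist1h2bc, Malat1, Cbfa2t3, Chd4, Gm42418, Gm26917, mt-Rnr1, mt-Rnr2, Meis1, Pcna-ps2, Ezh2, Ppp1r9b, Dntt, Mpo, Lmo2, Nfe2, Cd74, Gabarap, H1f0, Sesn1, Foxo3, Bnip3l, Gata2, Nfkb1, Snord47, Tuba1b and Ckap2l.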

Additional observations from a re-analysis of the deposited data

How the results depend on the processing

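The 35 higher and 122 lower genes were counted again under each alternative. Without the replicate block (the pairing by library) there were 35 and 114; 15 named genes, among them Mpo, Hlf, Ctsg and Malat1, lost their calls there. Without library 1, which the well table does not list, there were 30 and 105. DESeq2 called 68 higher. Without a low-count filter 11 were higher and 1337 lower of 20677 tested, with all genes shifted by -0.58. A minimum of 1000 UMIs gave 248 and 297, thinning 100 and 68, cells matched on depth 14 and 12, licensing at 0 UMIs 7 and 23, and cells without granule UMIs 3 and 8. Within SB341 there were 24 and 78, and within SB343 1 and 18. Chosen after seeing the data, a minimum of 5 cells gave 7 and 26 in the stem gate, 4 and 14 in the Dntt gate, 0 and 23 in the granule gate (226 at an unadjusted p under 0.05 by edgeR) and 14 and 22 without granule UMIs. The cause of these moves was not tested, beyond the fewer cells and libraries that the subsets hold.

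Among named called genes, 389 repeats kept the call, 342 kept the direction only and 30 reversed. Without the filter the reversed values were Ptpn18 -0.079, Ifitm3 -0.073, Rps9 -0.27, Rps14 -0.33, Rpl32 -0.37, mt-Rnr2 -0.24, mt-Co1 -0.31, mt-Rnr1 -0.33, Gm42418 -0.21 and Gm26917 -0.15. With licensing at 0 they were Rps14 -0.13, Rpl32 -0.20, mt-Rnr2 -0.17, mt-Rnr1 -0.24, Malat1 -0.11, Cbfa2t3 -0.046, Gm42418 -0.13 and Gm26917 -0.024. In the Dntt gate they were Mir5117 -0.090, Hlf -0.57, Rps14 -0.21, mt-Co1 -0.21, mt-Rnr1 -0.037 and Snord47 -0.047; in the stem gate Eef1g 0.14 and Malat1 -0.31; in the granule gate Ifitm3 -0.0065, Rps14 -0.0017 and Malat1 -0.15; and without granule UMIs Ppp1r9b -0.082.

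The mitochondrial share differed by 1.75 points within SB343 (exact p = 0.25). The ribosomal protein share differed by 0.226 points as a mean over cells (permutation p = 0.0527), by -0.055 with depth matched (permutation p = 0.753) and by 0.488 within SB343, and genes per cell by -56.8 within SB343. A stricter stem gate gave 11.9 points (adjusted p = 0.0469), and on all UMIs the lymphoid gate gave -3.28 (0.0179) and the granule gate -5.29 (0.00171), all by permutation. On all UMIs a deeper cell is likelier to hold a gate UMI and less likely to meet the rule. A difference below 0 is thus partly built into the last 2 values, and they are no test of lineage. On thinned counts they were -1.11 (permutation, adjusted p = 0.294) and -3.15 (0.11). Fits at a minimum of 2500 UMIs (20 cells), at 10% mitochondrial UMIs (58 cells) and within the 3 gates at 10 cells a library could not be made, for want of libraries, nor could the spike-in measures.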
